A study of Mus musculus with 7 samples.

Results

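The genes described here encode the proteins of the cytosolic ribosome in the mouse uterus. They were chosen by symbol: names of the Rps and Rpl series, Rpsa, and the P-stalk genes Rplp0, Rplp1 and Rplp2, leaving out symbols with -ps. The rule matched 85 of the 24964 symbols listed, and the 78 with a mean of at least 5 FPKM over the 7 libraries were kept, 32 of the small subunit and 46 of the large subunit. Among these, Rps4l is annotated in GENCODE as a transcribed processed pseudogene. FPKM scales the sequenced fragments of a gene to its length and to the fragments of the library, so levels of different genes can be compared per length. Whole uteri came from 12-week-old mice staged as diestrus, the phase of the estrous cycle before proestrus. The 3 control libraries (numbers 1, 2 and 4) have the genotype Pgrcre/+, and the 4 others (numbers 1 to 4) have Pgrcre/+Foxl2LsL/+, called Foxl2-LSL below. All 7 libraries therefore share the heterozygous Pgr-Cre allele, which expresses Cre recombinase from the progesterone receptor gene, and the groups differ by the Foxl2-LSL allele. Progesterone receptor is made in several uterine cell types, so recombination by this Cre is not restricted to a single cell type.

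A ribosome is built from a small subunit, which holds the messenger RNA and reads its codons, and a large subunit, which joins amino acids into protein. Each subunit is a scaffold of ribosomal RNA dressed with a fixed set of proteins, nearly all present in a single copy, and growing cells make these proteins together with ribosomal RNA and a large crew of nucleolar assembly factors. In mammals the messenger RNAs of ribosomal proteins are abundant, and most begin with a C followed by a run of pyrimidines, the 5′ terminal oligopyrimidine (TOP) motif, through which growth signals control their translation.

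The libraries held 47800000 to 67200000 fragments each, as recovered from the FPKM values, and each of the 73 members with a mean of at least 100 FPKM had at least 6536 fragments in every library. Foxl2 itself was at 11.1, 19.3 and 12.9 FPKM in controls 1, 2 and 4 and at 12.7, 14.3, 14.8 and 17.2 FPKM in Foxl2-LSL 1 to 4. Its log2 fold change was 0.06 (SE 0.18; limma, adjusted p 0.818), so the table did not show the targeted gene higher in the libraries labelled Foxl2-LSL. All directions given below follow those labels. Pgr, the gene that carries Cre, had a log2 fold change of -0.36 (SE 0.15; adjusted p 0.0845). The labels do not say that the libraries came from separate animals, and p-values measure the spread between these 7 samples. In RNA from a whole organ, fewer cells of a type and less RNA per cell cannot be told apart.

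RefSeq promoter windows on GRCm38.p6 were matched by symbol for 58 of the 78 members. The following 30-base windows around annotated transcription starts are shown because they set genes that rose, fell or did neither beside their pyrimidine runs, which are in capitals. Each is written 5′ to 3′ on the strand of the gene.
Rps6 (chr4:86857350-86857379, minus strand, start at 86857367): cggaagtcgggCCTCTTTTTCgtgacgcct
Rpl35a (chr16:33056470-33056499, plus strand, start at 33056482): gggcttgCCTTCCTCTTTCCgccatcttgg
Rpl14 (chr9:120571505-120571534, plus strand, start at 120571517): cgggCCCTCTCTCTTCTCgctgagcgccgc
Rpl27a (chr7:109519183-109519212, plus strand, start at 109519195): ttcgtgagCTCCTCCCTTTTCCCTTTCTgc
Rpl7a (chr2:26910795-26910824, plus strand, start at 26910807): CCCTCTTCTTTCTTTCTCCagcagccgagc
Rpl15 (chr14:18270969-18270998, minus strand, start at 18270986): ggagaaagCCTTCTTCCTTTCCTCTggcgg
Rpl34 (chr3:130730320-130730349, minus strand, start at 130730337): TCCTTTTCCTCTTCCggggacggtgctcag
Rps3a1 (chr3:86142651-86142680, minus strand, start at 86142668): aagCCggaagggcgaaagagcaagggtcac
Rpl9 (chr5:65391414-65391443, minus strand, start at 65391431): cagggCCCTgacggattacaagaacgtgat

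Rps6, Rpl35a, Rpl14 and Rpl27a were higher in the Foxl2-LSL libraries (below) and have runs of 10 to 20 pyrimidines in these windows. Rpl7a and Rpl15 have runs of 19 and 17 and did not pass the test, and Rpl34, with a run of 15 in the window shown, was lower. Rps3a1 and Rpl9 had the largest rises of their subunits, and the longest runs near the starts annotated in RefSeq are 2 and 4 bases. A run of at least 8 pyrimidines within 10 bases of the start was present in 29% of 69 member windows and in 7.43% of all 32851 windows. Of the 20 members with such a run 8 were higher and 1 was lower, with a median log2 fold change of 0.20. Of the 38 members with a window but no such run 17 were higher and none was lower, with a median of 0.26. Annotated starts can miss the start used in the uterus, so the absence of a run says only that these letters are not in this window.

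Other short motifs were searched on both strands of the whole window, from 250 bases before the start to 50 after it. The ETS core CCGGAAG was in 36.2% of member windows and 8.86% of all windows, and the GC box GGGCGG in 63.8% and 35.7%. The YY1 core AAGATGGCG was in 7.25% against 1.40%, the E-box CACGTG in 11.6% against 7.15%, and TATAAA in 10.1% against 13.6%. The forkhead core GTAAACA, named for the family of factors to which FOXL2 belongs, was in 1 of the 69 member windows (1.45%) and in 3.65% of all windows. These matches describe the letters of the windows and are no evidence of binding.

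In the small subunit 16 of 32 genes were higher and 1 was lower in the Foxl2-LSL libraries (limma, Benjamini-Hochberg adjusted p under 0.05 over the 13334 genes tested). In the large subunit 17 of 46 were higher and 1 was lower. Over all genes tested 16.7% were higher and 23.9% were lower, 40.6% in all. Of all 78 members 42.3% were thus higher. The median log2 fold change was 0.28 in the small subunit, 0.23 in the large subunit and -0.05 over all genes tested. Among the 78 members 68 had a log2 fold change above 0, and 48 had an unadjusted p under 0.05. The 33 genes called higher rose by a factor of 1.19 to 1.93 in mean FPKM, with a median of 1.25, so most of the rises were small. In 47 members every Foxl2-LSL library was above every control, against 19.7% of all genes tested, and the 33 called higher were all among them. In 2 members every Foxl2-LSL library was below every control, against 27.9%, so the groups did not overlap in 47.6% of all genes tested. For single genes, the exact permutation test over all 35 splits cannot go below a two-sided p of 0.0571 with 3 against 4 libraries, and 0.0571 is what each of the members with groups that do not overlap gives.

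**Figure D1:**
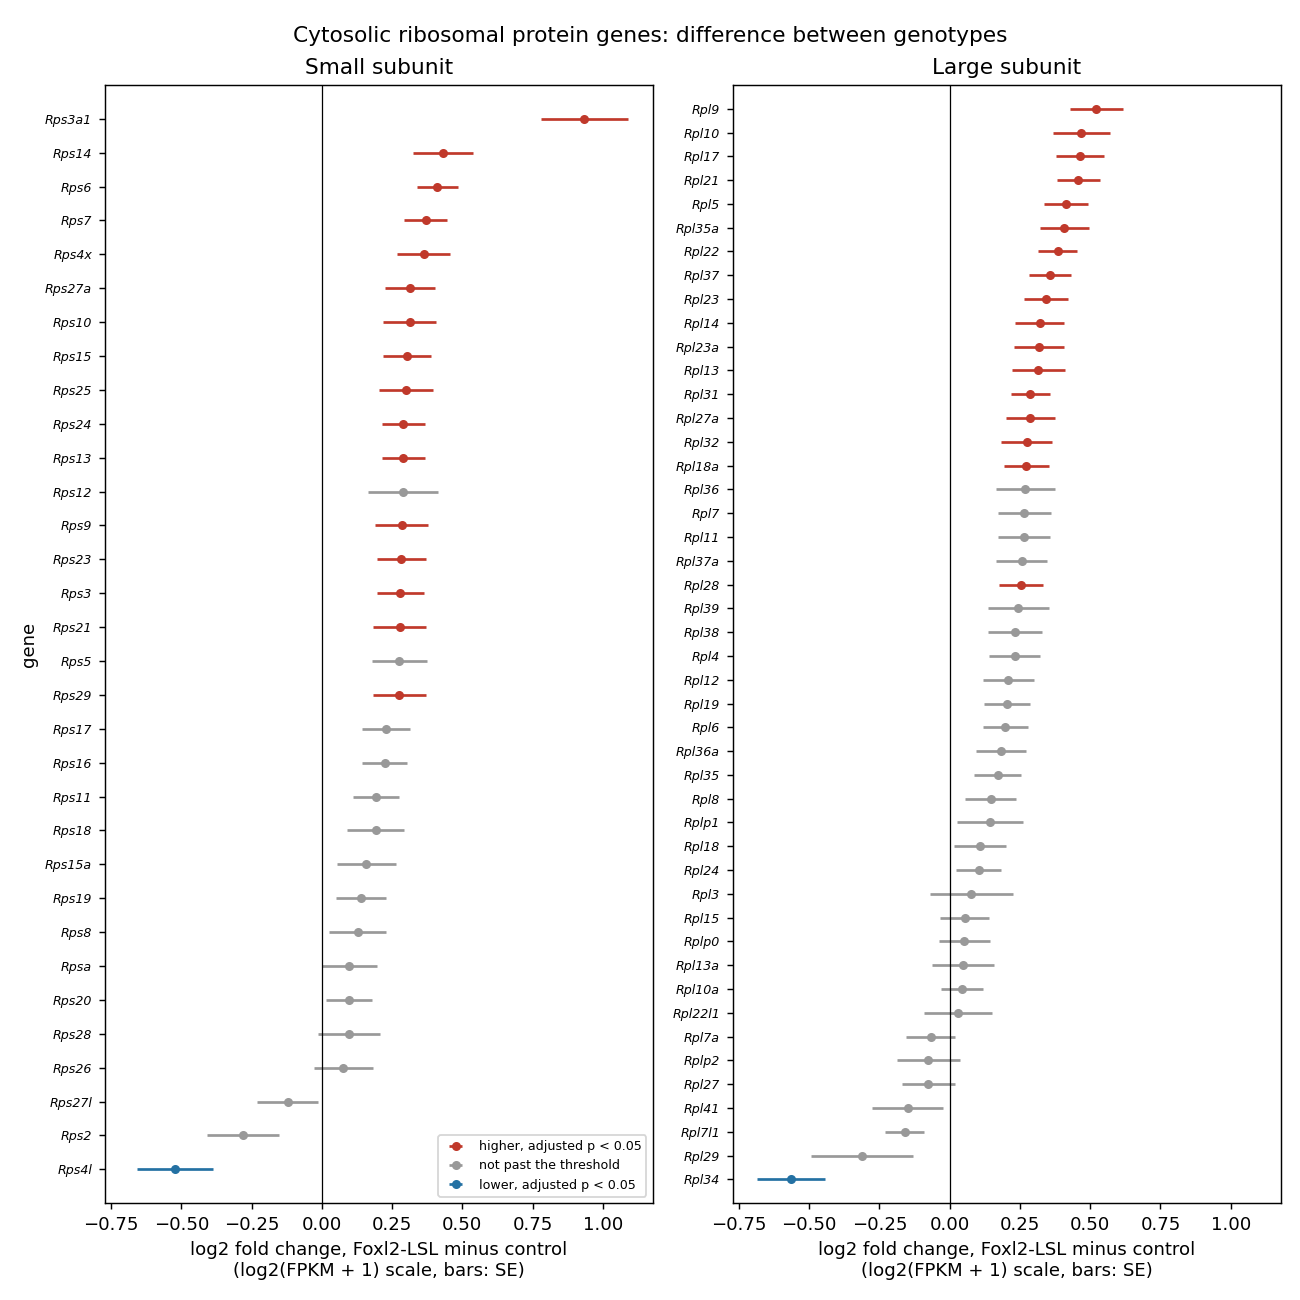
Log2 fold change (Foxl2-LSL minus control, on the log2(FPKM + 1) scale) of each ribosomal protein gene, small subunit on the left and large subunit on the right, with its SE as a bar. Genes called higher are red (16 and 17), genes called lower are blue (Rps4l and Rpl34) and the rest are grey. Most points lie between 0 and 0.5, and Rps3a1 stands alone at 0.93.

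The small subunit protein with the largest difference was that of Rps3a1, which sits where the messenger RNA leaves the subunit. Rps3a1 (ENSMUSG00000028081.6, chr3:86137940-86142702, minus strand, GRCm38) was at 597, 538 and 536 FPKM in controls 1, 2 and 4 and at 805, 1168, 1241 and 1098 FPKM in Foxl2-LSL 1 to 4. Foxl2-LSL 1 was the lowest of its group and still above every control. Means were 557 ± 34.5 FPKM in controls and 1078 ± 191 FPKM in Foxl2-LSL libraries (SD, n = 3 and 4), and the log2 fold change was 0.93 (SE 0.16; limma, adjusted p 0.0031). Of the 50-base stretches of its transcripts 71.0% also occur in transcripts of other loci, chiefly Rps3a2, so its value may hold or lack fragments of those copies.

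Rps14, whose protein forms part of the platform near the exit of the messenger RNA, was the most abundant small subunit gene. It was at 1318, 1201 and 1099 FPKM in the controls and at 1708, 1655, 1664 and 1473 FPKM in the Foxl2-LSL libraries, a log2 fold change of 0.43 (SE 0.11; limma, adjusted p 0.015). Rps6, the main substrate of S6 kinase in the subunit, was at 221, 219 and 230.3 FPKM and at 295, 307, 312 and 279 FPKM, a log2 fold change of 0.41 (SE 0.07; adjusted p 0.00397). For both genes the lowest Foxl2-LSL library was number 4, and the groups did not overlap. Without control 2 or control 4 Rps14 no longer passed, at an adjusted p of 0.051 or 0.0612.

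Rps7, needed for the processing of small subunit ribosomal RNA, rose from 415 ± 17.7 to 537 ± 19.4 FPKM (SD, n = 3 and 4; log2 fold change 0.37). Rps4x, encoded on the X chromosome, rose from 968 ± 16.8 to 1247 ± 91.7 FPKM (SD, n = 3 and 4; log2 fold change 0.36). Rps27a, made as a fusion of ubiquitin with a ribosomal protein, was at 572, 541 and 589.7 FPKM in the controls and at 759, 690.1, 735 and 643 FPKM in the Foxl2-LSL libraries (log2 fold change 0.31, SE 0.09; limma, adjusted p 0.0271). Rps3, which lines the entry of the messenger RNA and also acts in DNA repair, was at 429, 433 and 435 FPKM and at 538, 533, 558 and 475 FPKM (log2 fold change 0.28, SE 0.08; adjusted p 0.0306). The controls of Rps3 had an SD of 3.18 FPKM, and Foxl2-LSL 4 was nearest to them. With a library left out, Rps4x did not pass without Foxl2-LSL 3, control 1 or control 2 (limma, adjusted p 0.0576 to 0.0631) and Rps27a without Foxl2-LSL 1, Foxl2-LSL 3, control 1 or control 2 (adjusted p 0.0573 to 0.0985). Rps3 passed without Foxl2-LSL 4 but in none of the other 6 such fits (adjusted p 0.0533 to 0.0873).

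Not every small subunit gene followed. Rps19, the gene most often mutated in Diamond-Blackfan anemia, was at 477, 503 and 529.5 FPKM in the controls and at 568, 568, 584 and 500.5 FPKM in the Foxl2-LSL libraries, where number 4 lay inside the control range (log2 fold change 0.14, SE 0.09; limma, adjusted p 0.237). Rpsa, also known as the laminin receptor, had a log2 fold change of 0.10 (SE 0.10; adjusted p 0.457). Rps2, whose protein lies beside that of Rps3 at the entry of the messenger RNA, had values of 915, 845 and 922 FPKM and of 897, 629, 731 and 712 FPKM. Its log2 fold change of -0.28 did not pass (SE 0.13; adjusted p 0.117), and Foxl2-LSL 1 was the library inside the control range.

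In the large subunit the largest rise was that of Rpl9, whose protein sits near the base of the P-stalk. Rpl9 was at 814, 769 and 769 FPKM in the controls and at 1189.9, 1141, 1172 and 1010.2 FPKM in the Foxl2-LSL libraries, a log2 fold change of 0.52 (SE 0.09; limma, adjusted p 0.00414). Rpl10, a protein added last in the cytoplasm beside the catalytic center, was at 662, 730.1 and 764 FPKM and at 988, 1038, 1070.5 and 887 FPKM, a log2 fold change of 0.47 (SE 0.10; adjusted p 0.00919). In both genes all Foxl2-LSL libraries were above all controls and number 4 was the lowest of its group.

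Rpl17, which lines the tunnel through which the new protein leaves, rose from 701 ± 43.4 to 968 ± 40.4 FPKM (SD, n = 3 and 4), with a log2 fold change of 0.46 (SE 0.09; limma, adjusted p 0.00487). Rpl21 was at 256, 253 and 241 FPKM in the controls and at 350.0, 349, 362 and 316 FPKM in the Foxl2-LSL libraries, a log2 fold change of 0.46 (SE 0.08; adjusted p 0.00333). Rpl22, whose loss mice survive with a defect in T cells, was at 125, 122 and 124 FPKM and at 166, 165, 167 and 149 FPKM, a log2 fold change of 0.38 (SE 0.07; adjusted p 0.00423). The 3 controls of Rpl22 had an SD of 1.64 FPKM, and Foxl2-LSL 4 lay below the other Foxl2-LSL libraries.

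Rpl5 and Rpl11 bind 5S ribosomal RNA together and, when ribosome assembly fails, hold back Mdm2, the inhibitor of p53. Rpl5 was at 209, 201 and 195 FPKM in the controls and at 262, 289, 278 and 249 FPKM in the Foxl2-LSL libraries (log2 fold change 0.42, SE 0.08; limma, adjusted p 0.00517). Rpl11 was at 262, 274 and 289.8 FPKM and at 340.3, 341, 357 and 289.8 FPKM, a log2 fold change of 0.27 that did not pass (SE 0.09; adjusted p 0.0541). Control 4 and Foxl2-LSL 4 nearly met for Rpl11, and without Foxl2-LSL 4 its adjusted p was 0.0232. The exons of Rpl5 overlap those of Fam69a on the opposite strand by 953 bases, and those of 14 members overlap a gene of the opposite strand by 51 to 953 bases. The use of strand in counting is not given in the sources used here, so fragments of such partners cannot be told apart.

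Among genes of the catalytic center and of specialised roles, several did not pass. Rpl3, next to the peptidyl transferase center, was at 601, 573 and 478 FPKM in the controls and at 631, 613, 635 and 453 FPKM in the Foxl2-LSL libraries (log2 fold change 0.08, SE 0.15; limma, adjusted p 0.705). The libraries numbered 4 were the lowest of both groups for Rpl3, and the other 3 Foxl2-LSL values were above all controls. Rpl38, which mouse mutants link to the translation of Hox messenger RNAs, was at 408, 358 and 363 FPKM and at 471, 419, 475 and 404 FPKM (log2 fold change 0.23; adjusted p 0.0876). Rpl13a, which also silences inflammatory messenger RNAs when released from the ribosome, had a log2 fold change of 0.05 (SE 0.11; adjusted p 0.761).

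The P-stalk recruits the elongation factors and is formed by the products of Rplp0, Rplp1 and Rplp2. Rplp1 was the most abundant gene of all members, at 1992, 1944 and 2243 FPKM in the controls and at 2533, 2058, 2404 and 2124 FPKM in the Foxl2-LSL libraries. Its log2 fold change was 0.14 (SE 0.12; limma, adjusted p 0.364), that of Rplp0 was 0.05 (SE 0.09; adjusted p 0.678) and that of Rplp2 was -0.08 (SE 0.11; adjusted p 0.622). The groups overlapped in all 3 P-stalk genes, and none passed the test. Under quantile normalization Rplp0 and Rplp2 were called lower, at log2 fold changes of -0.22 (limma, adjusted p 0.0246) and -0.30 (adjusted p 0.0214), and Rplp1 turned to -0.11 without passing (adjusted p 0.368).

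Some ribosomal proteins have a second gene, a paralog, that can take the place of the usual copy in certain tissues. Of the 4 members with the form of symbol given to such copies, none was higher and Rps4l, the annotated pseudogene, was lower. The symbol does not show that a product takes the place of the usual copy. Rps4l was at 17.3, 15.1 and 21.6 FPKM in the controls and at 12.6, 10.03, 12.9 and 13.2 FPKM in the Foxl2-LSL libraries, a log2 fold change of -0.52 (SE 0.14; limma, adjusted p 0.0188), while Rps4x was higher. Rpl22l1 had a log2 fold change of 0.03 (SE 0.12; adjusted p 0.865), or -0.03 under quantile normalization, beside 0.38 for its parent Rpl22. Rpl7l1 was at 37.3, 39.1 and 38.9 FPKM and at 37.3, 32.9, 32.4 and 34.7 FPKM (log2 fold change -0.16; adjusted p 0.104), and its relative Rpl7, at 1056 ± 16.6 and 1272 ± 88.6 FPKM (SD, n = 3 and 4), had a log2 fold change of 0.27 (adjusted p 0.0524, or 0.0296 without Foxl2-LSL 4). Rps27l, a target of p53, was at 93.9, 95.8 and 93.4 FPKM and at 106, 79.1, 81.3 and 82.8 FPKM, and only Foxl2-LSL 1 was above the controls (log2 fold change -0.12; adjusted p 0.402). Without that library Rps27l was called lower, at -0.22 (adjusted p 0.0389). The copies Rpl3l, Rpl10l and Rpl39l, known from muscle and testis, were below 1 FPKM in every library. Their parents Rpl3, Rpl10 and Rpl39 were between 367 and 1070.5 FPKM.

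**Figure D2:**
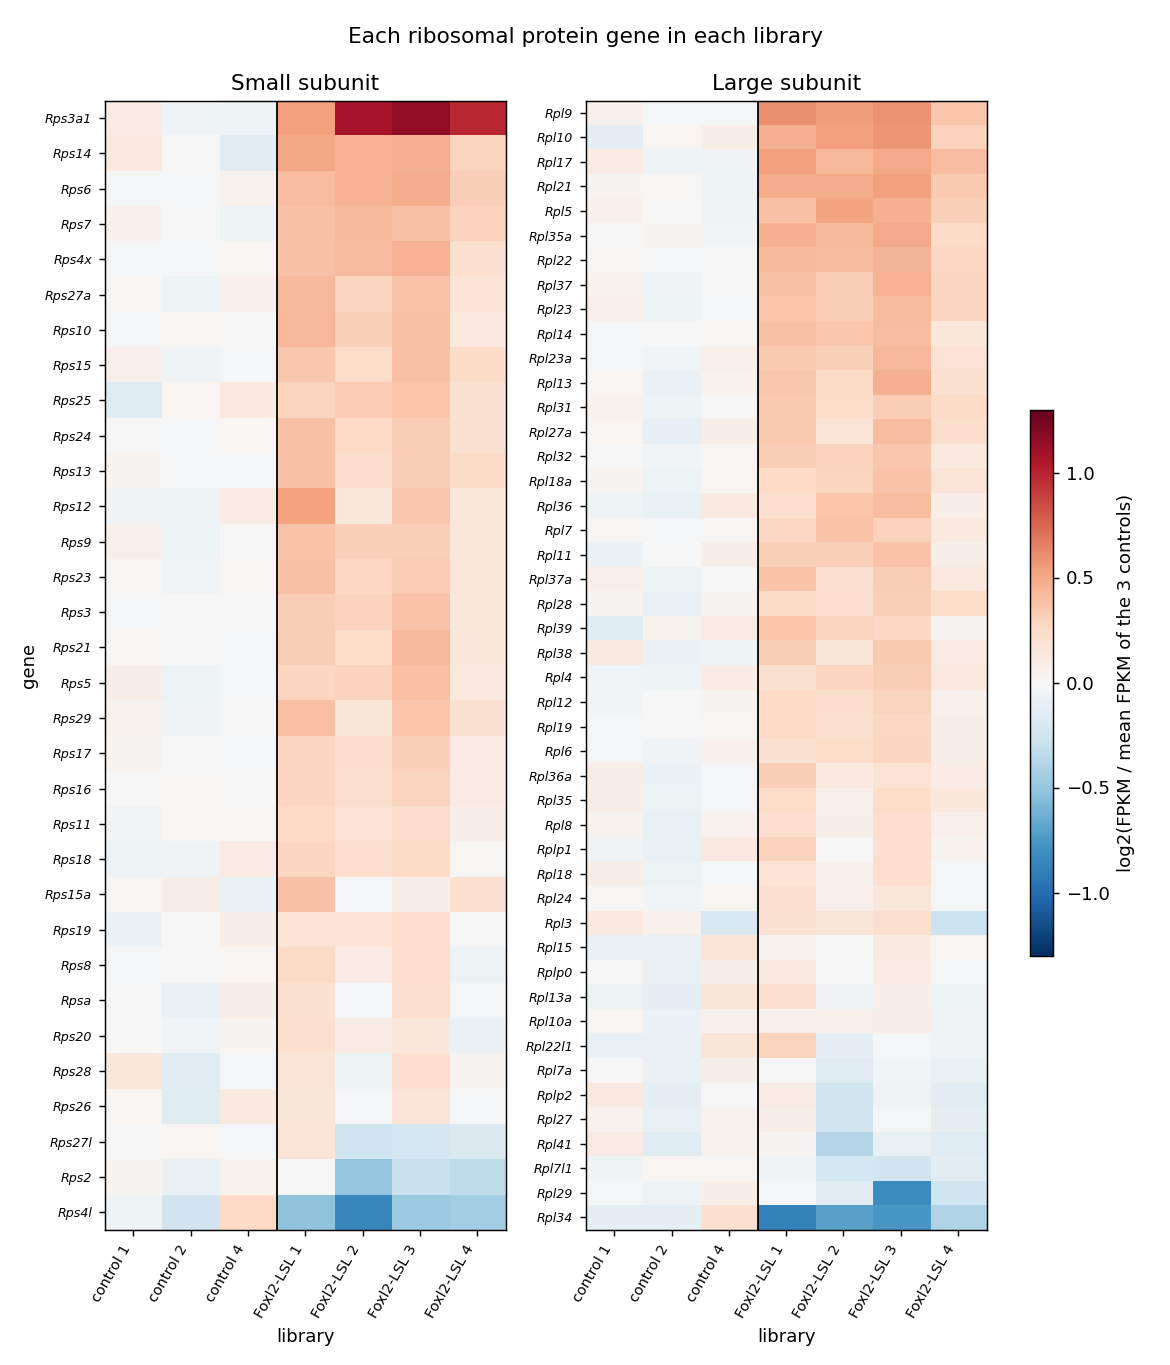
Each row is a ribosomal protein gene and each column a library. Color gives log2 of the library's FPKM over the mean FPKM of the 3 controls, on a scale from blue (lower) to red (higher). Foxl2-LSL 4 is paler than the other Foxl2-LSL libraries in most rows, and Rpl34, Rps4l, Rps2 and Rpl29 hold the darkest blue cells.

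Members lay at very different levels. Mean FPKM over the 7 libraries ran from 5.13 (Rpl34) to 2185 (Rplp1), with a median of 750 in the small subunit and 495 in the large subunit. They made up 73 of the 404 tested genes with a mean of at least 100 FPKM (18.1%). The other 331 genes at that level had a median log2 fold change of -0.05, with 64 higher and 85 lower. Across the 78 members the log2 fold change had a Spearman's rho of 0.18 with mean FPKM and of 0.05 with gene length. Genes share their libraries and are no replicates, so these values only describe them.

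Summed over its genes, the small subunit had 20458, 19634 and 20403 FPKM in the controls and 25310.5, 23785, 25423 and 22304 FPKM in the Foxl2-LSL libraries. The large subunit had 25297, 24017 and 25719 FPKM and 30176, 28082, 30032 and 26597 FPKM. The mean sums were 20% and 14.8% higher in the Foxl2-LSL libraries, and the groups did not overlap in either. The members held 4.70% ± 0.122 of the listed fragments in controls (SD, n = 3) and 5.58% ± 0.328 in Foxl2-LSL libraries (SD, n = 4). The ratio of the small to the large sum was 0.807 ± 0.0123 in controls and 0.843 ± 0.00469 in Foxl2-LSL libraries (SD, n = 3 and 4), again without overlap. Without Rps3a1, a choice made after the data were seen, the ratio was 0.784 ± 0.0114 and 0.805 ± 0.00605, with the highest control at 0.795 and the lowest Foxl2-LSL library at 0.797.

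**Figure D3:**
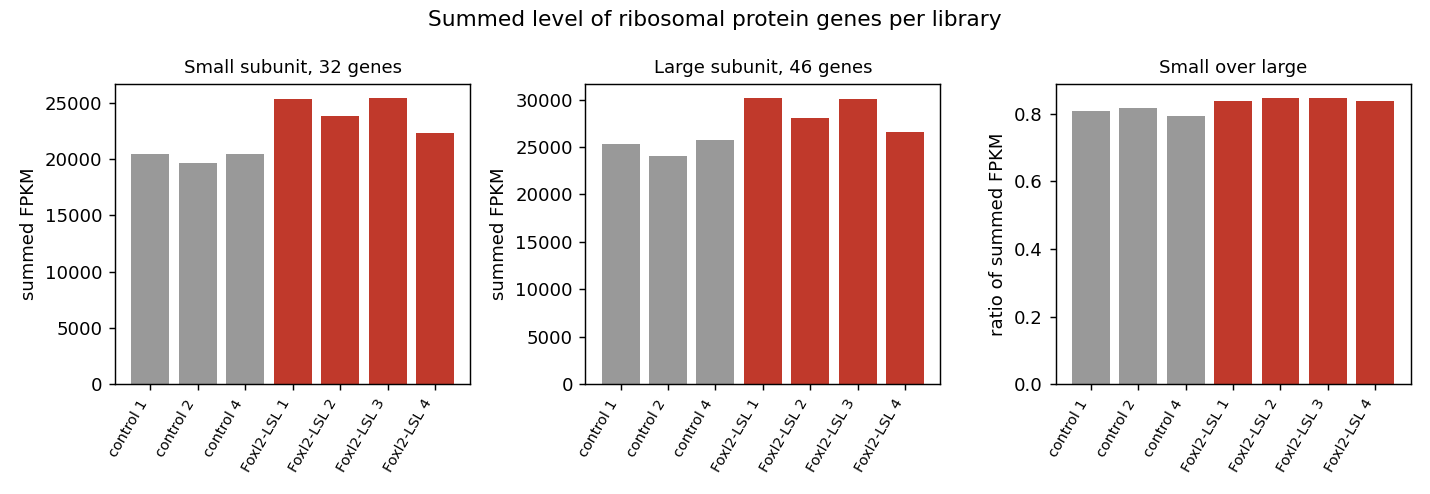
Bars show, for each library, the summed FPKM of the 32 small subunit genes, the summed FPKM of the 46 large subunit genes, and the ratio of these sums. Controls are grey and Foxl2-LSL libraries red. All 4 red bars are above all 3 grey bars in each panel, and Foxl2-LSL 4 is the lowest red bar of both sums.

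The libraries were not alike within their groups. Of the 73 members with at least 100 FPKM, control 2 was the lowest control for 48 and Foxl2-LSL 4 the lowest Foxl2-LSL library for 53. Foxl2-LSL 3 was the highest of its group for 40 and Foxl2-LSL 1 for 30. The median coefficient of variation of these genes was 4.54% among controls and 7.15% among Foxl2-LSL libraries. Leaving out control 2 left 3 small and 8 large subunit genes higher, and leaving out control 1 left 7 and 10, or control 4 left 7 and 12. Leaving out Foxl2-LSL 1, 2, 3 or 4 gave 7, 10, 4 and 18 small subunit genes and 10, 15, 10 and 20 large subunit genes. Over all genes tested, 14.3%, 15.3%, 12.3% and 12.9% were higher without Foxl2-LSL 1, 2, 3 and 4, and 15%, 12.4% and 16% without control 1, 2 and 4. Without control 2 the 11 members called higher were 14.1% of all members, near the share of all genes. The median log2 fold changes of the subunits stayed between 0.20 and 0.31 in all 7 of these fits. The 5 genes Rps3a1, Rps6, Rpl5, Rpl21 and Rpl22 were called higher under all 19 other settings of the fit, leaving aside centring on the members themselves. Among these 19, leaving out Foxl2-LSL 3 and taking libraries 1, 2 and 4 without a block are the same fit.

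The scaling of the libraries bears on these counts. Quantile normalization, which forces all libraries to 1 distribution, gave 3 higher and 2 lower genes in the small subunit and 8 higher and 5 lower in the large subunit, with median log2 fold changes of 0.05 and 0.02. Members made up 73 of the 404 tested genes with a mean of at least 100 FPKM. Whether forcing 1 distribution removed part of a rise that members share, or the deposited scaling added to it, was not tested. With quantile normalization 20% of all genes tested were higher and 20.6% lower, so the members' 14.1% higher was below the share of all genes. Rps14, Rps7, Rps4x, Rps27a, Rps3 and Rpl10 then did not pass. Rpl3, Rpl13a, Rps19 and Rpsa, which had not passed the test, turned to log2 fold changes of -0.15, -0.15, -0.07 and -0.13. When all 21011 genes above 0 were tested, 3 small and 6 large subunit genes were higher, 11.5% of the members beside 11.6% of all genes. In that fit Rps14, Rps4x, Rps27a, Rps3, Rpl9, Rpl10 and Rpl17 did not pass (limma, adjusted p 0.0653 to 0.224). On the recovered fragments, limma-voom called 21 small and 29 large subunit genes higher and 1 lower in each, where 20.1% of all genes were higher and 19.6% lower.

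To see which members differed from the typical member, each library was centred on its median member, a choice made after the data were seen. Higher than the typical member were Rps3a1 (log2 fold change 0.67), Rpl9 (0.26) and Rpl17 (0.20), where 7.03% of all genes tested were higher. Lower were 12 members, where 46.2% of all genes tested were lower. They comprised Rpl34 at -0.82, Rps4l at -0.78, Rpl29 at -0.57, Rps2 at -0.54, Rpl7l1 at -0.42, Rpl41 at -0.41, Rps27l at -0.38, Rpl27 and Rplp2 at -0.34, Rpl7a at -0.33, Rpl10a at -0.22 and Rplp0 at -0.21. Rpl29 rested mostly on Foxl2-LSL 3, at 129 FPKM beside 227, 206 and 191 FPKM in Foxl2-LSL 1, 2 and 4 and 224, 219 and 244 FPKM in the controls.

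Rpl34 was just inside the level required of a member and Rpl30 just outside it. Rpl34 was at 6, 6 and 7.54 FPKM in the controls and at 3.54, 3.98, 3.86 and 4.97 FPKM in the Foxl2-LSL libraries, a log2 fold change of -0.56 (SE 0.12; limma, adjusted p 0.00867). Rpl30 was at 4.64, 4.25 and 5.26 FPKM and at 2.75, 2.77, 3.01 and 3.98 FPKM, and Rps27, also below that level, was between 1.76 and 2.54 FPKM. Rpl26 was listed at 0 in all 7 libraries. Ribosomes carry each of these proteins, and the median large subunit gene was at 495 FPKM.

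These 4 low genes share sequence with copies listed at 0. Of the 50-base stretches of its transcripts Rpl34 shares 10.97% with Rpl34-ps1, Rpl30 22.5% with Gm12191, Rps27 46.2% with Rps27rt and Rpl26 37.4% with Gm15772, and each of these copies was listed at 0 in all 7 libraries. How fragments with several matches were counted is not given in the sources used here, and the part of this in the levels was not tested. Rps12, which shares 26.6% with Nphs1, also listed at 0, had a mean of 1352 FPKM. Over the 77 members with a value the shared part ran from 0% to 85.5%, with a median of 34.5%, and 23 members shared more than 50%. These included Rps6 at 84.6%, Rpl10 at 73.7%, Rps4x at 72.2% and Rps3a1 at 71.0%, so their values may hold or lack fragments of other loci. The log2 fold change had a Spearman's rho of 0.07 with this share across those 77 genes. Among genes with nearly no shared stretches, Rps3 (2.82%) and Rpl22 (5.16%) rose, and Rpl8 (6.30%) had a log2 fold change of 0.15 that did not pass.

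**Figure D4:**
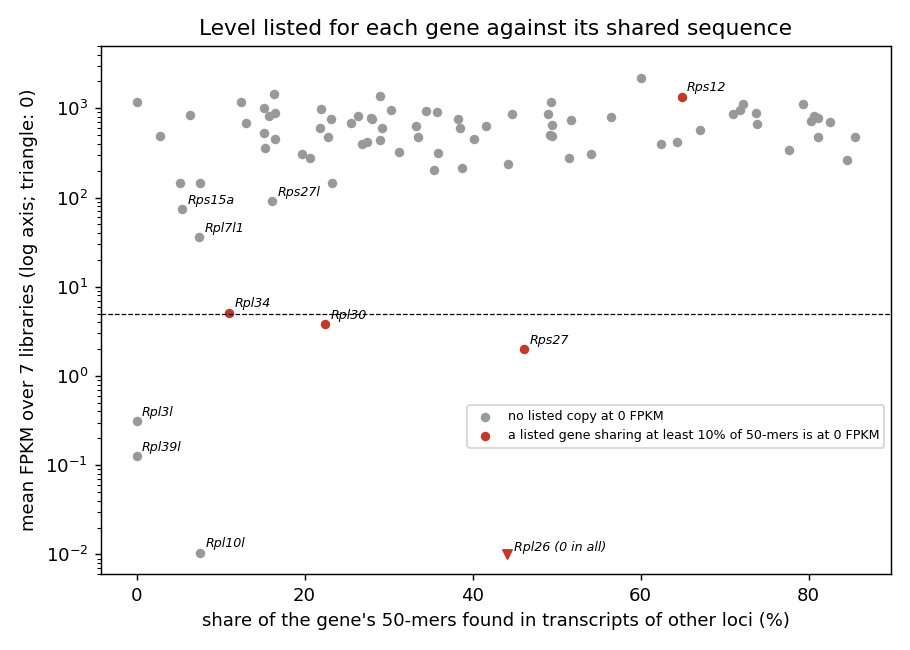
Each point is a gene matched by the symbol rule. The horizontal axis gives the percentage of its 50-base stretches found in transcripts of other loci, and the vertical axis its mean FPKM on a log scale, with a triangle for Rpl26 at 0. Red marks genes that share at least 10% with a listed gene at 0 FPKM: Rpl26, Rps27, Rpl30, Rpl34 and Rps12. The dashed line is the minimum of 5 FPKM, and Rpl34 lies just above it.

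Further parts of the cytosolic ribosome are encoded by genes that the symbol rule leaves out. Fau encodes a fusion of a ubiquitin-like protein with a small subunit protein. It was at 430.4, 389.5 and 392.3 FPKM in the controls and at 541, 511, 564 and 468 FPKM in the Foxl2-LSL libraries. Its log2 fold change was 0.36 (SE 0.09, limma adjusted p 0.0173). Fau did not pass without Foxl2-LSL 3 or control 2 (limma, adjusted p 0.0526 and 0.066). Nor did it under quantile normalization, with all genes above 0 tested, or with a block on replicate number (limma, adjusted p 0.218, 0.0591 and 0.0636). Rack1, the signalling scaffold on the small subunit head, had a log2 fold change of 0.19 (adjusted p 0.119) and did not pass the test. In both genes all Foxl2-LSL libraries were above all controls.

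Most of the genes that make ribosomes and passed the test were lower. Of 39 ribosome assembly factors 32 were lower and 1, Sbds, was higher, with a median log2 fold change of -0.47. The lower genes were 82.1% of the list, beside 23.9% of all genes. The count was 22 with a block on replicate number (56.4% beside 14.1% of all genes) and 25 without control 2 (64.1% beside 16.5%). Rrp12 fell by 1.08 on the log2 scale (adjusted p 0.000716), Nop56 by 0.94 (adjusted p 0.000373) and Bysl by 0.91 (adjusted p 0.00095; all limma). The summed FPKM of the members was 29.9 to 34.5 times that of the assembly factors in controls and 49.9 to 56.4 times in Foxl2-LSL libraries. Of 14 genes of the RNA polymerase I machinery, which transcribes ribosomal RNA, 6 were lower (42.9%, beside 23.9% of all genes) and none higher. Under median centring, quantile normalization, removal of a length trend and limma-voom 1 was higher. The lower genes were 4 with a block on replicate number (28.6%, beside 14.1% of all genes). The catalytic subunit Polr1a fell from 11.1 ± 0.618 to 6.48 ± 0.562 FPKM (SD, n = 3 and 4). Taf1d and Polr1e fell by 0.62 and 0.61 on the log2 scale.

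Ribosomes of mitochondria have their own proteins. Of 78 such genes 35 were lower (44.9%, beside 23.9% of all genes) and none higher, with a median log2 fold change of -0.22. Mrpl20, Mrpl38 and Mrps11 fell by 0.61, 0.51 and 0.51 on the log2 scale. With a library left out 20 (without control 2) to 40 (without Foxl2-LSL 1) were lower, with 22, 21 and 22 lower without Foxl2-LSL 3, Foxl2-LSL 4 and control 1, and 2 were higher without Foxl2-LSL 2 and 1 without control 1. Those 20 and 40 were 25.6% and 51.3% of the list, beside 16.5% and 21.3% of all genes lower in the same fits. Median centring gave 22 lower and 2 higher, with 28.2% of the list and 19.8% of all genes lower. By limma-voom 17 were lower and 3 higher, with 21.8% of the list and 19.6% of all genes lower. Their promoter windows held the ETS core at 34.7%, close to the 36.2% of the cytosolic members, and a pyrimidine run of at least 8 near the start at 6.67%. Of 28 initiation factors 14 were lower (50%, beside 23.9% of all genes) and Eif4a2 was higher. Without control 2, 8 were lower (28.6%, beside 16.5% of all genes). Eif2s1, which is phosphorylated under stress, fell by 0.65, the cap-binding Eif4e by 0.61 and Eif5a by 0.58 on the log2 scale.

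Of 9 genes of elongation factors and other TOP messenger RNAs, Tpt1 was higher and Pabpc1 lower. Each was 11.1% of the list, beside 16.7% of all genes higher and 23.9% lower. Tpt1 was at 2032, 2156 and 1853 FPKM in the controls and at 2614, 2931, 2719 and 2397 FPKM in the Foxl2-LSL libraries, a log2 fold change of 0.40 (SE 0.11; limma, adjusted p 0.0256). Pabpc1, the poly(A)-binding protein, fell from 234 ± 17.3 to 177 ± 7.16 FPKM (SD, n = 3 and 4). Tpt1 did not pass without Foxl2-LSL 3, control 1 or control 4 (limma, adjusted p 0.0697 to 0.105). Nor did Tpt1 under quantile normalization, with all genes above 0 tested, or with a block on replicate number (limma, adjusted p 0.661, 0.445 and 0.0594). The median of this list was 0.07, and it turned to -0.04 under quantile normalization. Of 21 growth regulators of ribosome synthesis 3 were higher (14.3%, beside 16.7% of all genes) and 9 lower (42.9%, beside 23.9%). The count of lower genes was 5 without Foxl2-LSL 1, 3 or 4 or control 2 or 4, and 5 under median centring, quantile normalization and limma-voom. These 5 were 23.8% of the list. Over all genes 16.5% to 24% were lower in those left-out fits, and 19.6% to 20.6% under median centring, quantile normalization and limma-voom. Ddit4, an inhibitor of mTOR signalling, rose from 23.1 ± 2.94 to 44.3 ± 8.45 FPKM, while Sesn2, another inhibitor, and Myc fell by 0.82 and 0.60 on the log2 scale. Sesn2 did not pass without Foxl2-LSL 1, 3 or 4 or control 4 (limma, adjusted p 0.0559 to 0.0754), nor Myc without Foxl2-LSL 1, 2 or 4 or control 2 or 4 (adjusted p 0.0517 to 0.0812). With all genes above 0 tested neither passed (limma, adjusted p 0.0534 and 0.0596), nor did Sesn2 with a block on replicate number (adjusted p 0.142). Myc also missed under median centring, quantile normalization, removal of a length trend and limma-voom (limma, adjusted p 0.0543 to 0.0594). Trp53, which encodes p53, fell by 0.58 (adjusted p 0.00372), the 1 call among the 3 genes of the p53 response to faulty ribosomes.

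**Figure D5:**
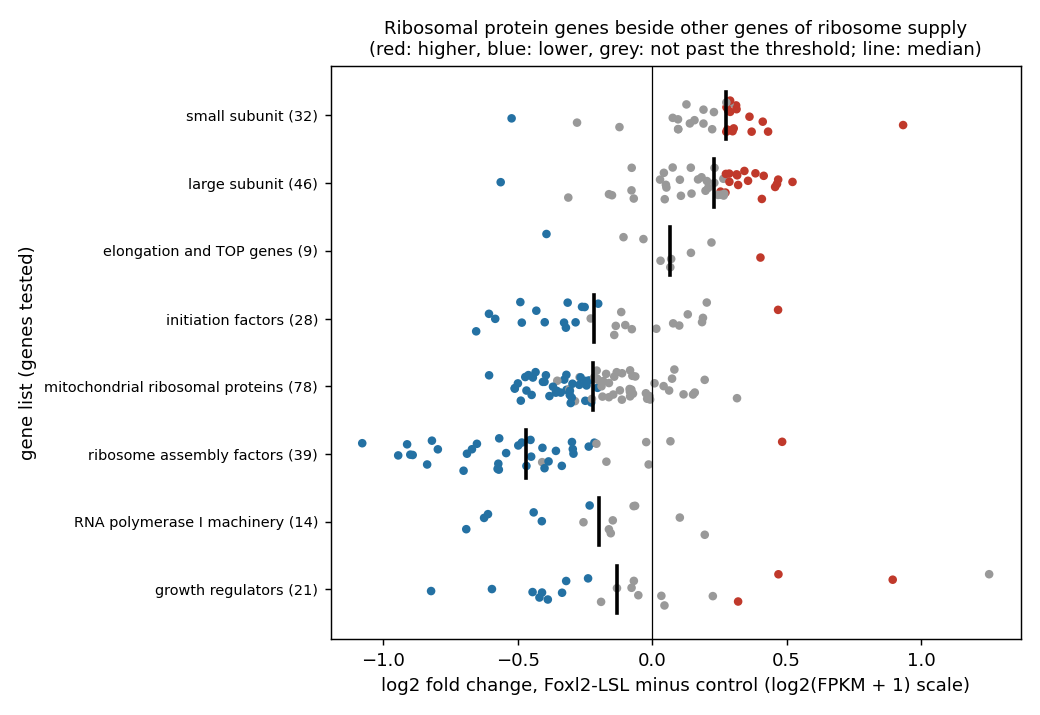
Each point is a gene, placed by its log2 fold change (Foxl2-LSL minus control, log2(FPKM + 1) scale) in the row of its list, with the number of genes tested in brackets. Red points were higher, blue lower and grey did not pass the test, and the black bar is the median. The small and large subunit medians lie at 0.28 and 0.23, and those of the assembly factors and mitochondrial ribosomal proteins at -0.47 and -0.22.

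Markers of cell types and of dividing cells differed between the same groups, and their part in the values of ribosomal protein genes was not tested. All 6 cell cycle markers were lower, with a summed level of 64.2 to 149.6 FPKM in controls and 7.86 to 25.1 FPKM in Foxl2-LSL libraries. The summed level of 6 endothelial markers was 106 to 149.6 FPKM and 88.4 to 99.0 FPKM, with 4 genes lower and Cldn5 higher. The 6 leukocyte markers summed to 21.7 to 32.1 FPKM and 34.3 to 70.2 FPKM, with 2 of 4 tested genes higher, 3 without Foxl2-LSL 2 and 1 without Foxl2-LSL 1, Foxl2-LSL 4 or any 1 control. The gland list was split, since Ltf was higher and 3 others, Foxa2 and Cxcl15 among them, were lower, and its sum was 91.5 to 309 FPKM and 469 to 1093 FPKM. The sums of 9 epithelial, 8 stromal, 7 smooth muscle, 5 adipocyte and 5 ovarian markers overlapped between the groups. Of these genes 2 epithelial, 3 smooth muscle and 1 stromal gene were higher and 2 stromal genes were lower. No adipocyte or ovarian gene passed the test. The adipocyte sum was very uneven, at 0.46, 9.38 and 97.4 FPKM in controls 1, 2 and 4 and at 2.67, 127, 253 and 17.9 FPKM in Foxl2-LSL 1 to 4. For smooth muscle the overlap lay in control 4, at 1659 FPKM beside 911 and 838 FPKM in controls 1 and 2. The Foxl2-LSL libraries were at 1486 to 1931 FPKM. Without control 4 all 7 genes were higher, with a median log2 fold change of 0.95. Without control 1, 3 were higher, with a median of 0.44, and without control 2, 2 were higher, with a median of 0.37. The lower stromal genes were 4 without control 1, and 1 without control 2 or any 1 Foxl2-LSL library. The 4 hemoglobin genes Hba-a1, Hba-a2, Hbb-bs and Hbb-bt were listed at 0 in all 7 libraries. As the handling of fragments with several matches is not given, these zeros do not show that blood was absent. The summed markers of uterine epithelium, stroma and smooth muscle were at least 1148, 1189 and 838 FPKM in every library, so the layers of the labelled tissue were represented.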

How the data were processed

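Total RNA was extracted with TRIzol, per the labels' protocols. The authors deposited 1 table of FPKM values with 1 column per library, no pooling, and another value, gene length in bases, per the file headers. STAR 2.5.2b, featureCounts 1.5.0-p1 and the build mm10 are named without roles in the submitters' processing notes; annotation, strand and the handling of fragments with several matches are not given in the sources used here. FPKM times length gave whole fragments in each library (100% of the low values tried came out whole within 0.1, against 20% by chance). The floor of detection is 3 fragments, and counting intervals would cover counting error only.

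Genes with a mean of at least 1 FPKM, and Foxl2, were tested on log2(FPKM + 1) with limma 3.58.1 in R 4.3.3 (intensity trend, Benjamini-Hochberg over 13334 genes, threshold 0.05). Fold changes are on that scale, which understates those of low genes. The model was tested on simulated data. Python 3.11.15, numpy 2.4.6, pandas 2.3.3, scipy 1.17.1 and matplotlib 3.10.9 made the summaries. Positions and shared 50-base stretches came from GENCODE M21 on GRCm38 and promoter windows from RefSeq on GRCm38.p6. No genome or protein sequence was used. A gene of the list of other ribosome components is not reported here.

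The members, the gene lists and the alternatives were chosen with earlier results of these data known. Named genes were a fixed list of members by role and of paralogs with their parents, without Rpl32l and Rpl36al. Added were the 5 largest rises and falls per subunit with groups that do not overlap, and the highest and lowest member of each subunit. Up to 3 called genes per other list were also named. Members called against the median member, those named for an overlap, shared sequence or promoter window, and Rpl29, Rps2, Rpl8, Rpl28, Rpl32, Rps9, Rps12, Sbds and Eif4a2 were named after their values were seen. Groups came from the genotype and replicate numbers from the titles. Alternatives covered scaling, pseudocount, filters, the variance model, gene length, a replicate block, the level required of a member, paralogs and each library left out.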

Additional observations from a re-analysis of the deposited data

Results flagged for a closer look

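In 4 of 72 named genes a Foxl2-LSL library stood apart from the other 3 of its group by a large gap, where chance flags about 1 in 20 groups. Rpl22 was at 149 FPKM in Foxl2-LSL 4, below the others. Rpl3 was at 453 FPKM in Foxl2-LSL 4, below the others and below all controls. Rps27l was at 106 FPKM in Foxl2-LSL 1, above the others and above all controls. Rpl39l was at 0.228 FPKM in Foxl2-LSL 1, above the others, at a level close to the floor.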

How the results depend on the processing

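The median log2 fold changes of both subunits stayed above 0 under every alternative run except centring on the median member, which sets the members' own median to 0, and the calls of members moved more. Quantile normalization gave medians of 0.0483 (small) and 0.0161 (large), with 3 higher and 2 lower small subunit genes and 8 higher and 5 lower large subunit genes. Whether this scaling or the deposited one is nearer to the levels in the tissue was not tested. Testing all genes above 0 left 3 small and 6 large subunit genes higher, 11.5% of members beside 11.6% of all genes, and limma-voom on recovered fragments (5291 genes called in all) gave 29 large subunit genes higher. Rescaling to a common sum gave 2 lower small subunit genes. A minimum of 1 FPKM gave 2 lower large subunit genes, a minimum of 20 FPKM gave 0 lower in both subunits, and leaving out paralogs gave 0 lower in the small subunit. Centring on the median member, chosen after the data were seen, gave 1 higher and 3 lower in the small and 2 higher and 9 lower in the large subunit. Leaving Rps3a1 out, also chosen afterwards, cut the percent difference of the small to large ratio from 4.49 to 2.65.

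The numbers 1, 2 and 4 occur in both groups, and deviations of same-numbered libraries correlated at 0.23, -0.06 and -0.06 across genes, so the numbers were not taken to pair samples. A replicate block on these libraries called 3243 genes. It gave 4 small and 6 large subunit genes higher, 12.8% of members beside 10.3% of all genes. With it 8 of 28 initiation factors, 14 of 78 mitochondrial ribosomal proteins and 3 of 21 growth regulators were lower. These were 28.6%, 17.9% and 14.3% of their lists, beside 14.1% of all genes lower. The same 6 libraries without a block, which is the fit without Foxl2-LSL 3, gave 4 small and 10 large subunit genes higher. Leaving out each library in turn gave 3853 to 5328 genes in all, 3 to 18 higher and 1 to 3 lower small subunit genes (median 0.24 to 0.31), and 8 to 20 higher and 1 to 1 lower large subunit genes (median 0.20 to 0.26). With a library left out fewer samples are tested.

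Among members called higher, Rps9 and Rpl32 turned to -0.00662 and -0.00194 under quantile normalization and Rpl28 to -0.00649 when centred on the median member. The other log2 fold changes given here that turned below 0 belonged to genes that had not passed the test. Centring on the median member gave -0.20 for Foxl2, -0.21 for Rpl13a, -0.23 for Rpl22l1, -0.18 for Rpl3, -0.0289 for Rpl38, -0.0162 for Rpl39, -0.21 for Rplp0, -0.12 for Rplp1, -0.12 for Rps19 and -0.16 for Rpsa. Quantile normalization gave -0.15 for Rpl13a, -0.0267 for Rpl22l1, -0.15 for Rpl3, -0.22 for Rplp0, -0.11 for Rplp1, -0.0722 for Rps19 and -0.13 for Rpsa. With a library left out, the range was -0.0999 to 0.28 for Foxl2, -0.00795 to 0.13 for Rpl13a, -0.0598 to 0.11 for Rpl22l1 and -0.0219 to 0.19 for Rpl3. For all of these the cause was not tested.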
